A study of Homo sapiens with 8 samples.

Results

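The 10 genes described here encode amino acid transporters of the SLC7 and SLC3 families: SLC7A9, SLC3A1, SLC3A2, SLC7A1, SLC7A2, SLC7A5, SLC7A6, SLC7A7, SLC7A8 and SLC7A11. They were picked by name from 30755 gene symbols in an RNA-seq table, and the family was chosen because SLC7A9 was much lower after HNF4A knockdown. The difference of SLC7A9 is therefore given as a description without a test, and the counts over the family do not stand as support for it. The cells were ESO26, an established oesophageal adenocarcinoma cell line, cultured in RPMI-1640 with 10% fetal bovine serum. In 2 libraries HNF4A had been knocked down with small interfering RNA (siHNF4A), and 2 libraries came from control cells. All 4 came from 1 cell line, and the labels do not say what the control cells received, when the RNA was taken or whether the libraries came from separate cultures, so p-values measure the spread between these libraries, which may be technical. HNF4A is a nuclear receptor of liver, kidney and intestinal epithelium that binds DNA and regulates transcription.

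The SLC7 and SLC3 families work together. An SLC7 light chain carries the amino acids, and most light chains reach the cell surface only when joined by a disulfide bond to an SLC3 heavy chain, which is a single-pass membrane glycoprotein. The heavy chain SLC3A1 (rBAT) pairs with SLC7A9 in the apical membrane of kidney tubule and small intestine, where the pair takes up cystine and dibasic amino acids in exchange for neutral ones, and inherited defects in either gene cause cystinuria. The heavy chain SLC3A2 (CD98) pairs with SLC7A5, SLC7A6, SLC7A7, SLC7A8 and SLC7A11, while SLC7A1 and SLC7A2 carry cationic amino acids without a heavy chain.

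Promoter sequences are shown for the light chain that chose the family, for SLC7A7, which was also much lower after knockdown, and for SLC7A8, the member that was higher. They are the 250 bases before the outermost annotated start, 5′ to 3′ on the strand of the gene, from RefSeq in build GRCh38.p14. Capitals mark a match to a motif that was searched.
SLC7A9, chr19:32869768-32870017, minus strand: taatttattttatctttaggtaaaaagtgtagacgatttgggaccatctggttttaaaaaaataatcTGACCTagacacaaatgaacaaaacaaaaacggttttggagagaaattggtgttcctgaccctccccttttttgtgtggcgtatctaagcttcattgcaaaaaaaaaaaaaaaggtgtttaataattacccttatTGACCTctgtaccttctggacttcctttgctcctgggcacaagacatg
SLC7A7, chr14:22819792-22820041, minus strand: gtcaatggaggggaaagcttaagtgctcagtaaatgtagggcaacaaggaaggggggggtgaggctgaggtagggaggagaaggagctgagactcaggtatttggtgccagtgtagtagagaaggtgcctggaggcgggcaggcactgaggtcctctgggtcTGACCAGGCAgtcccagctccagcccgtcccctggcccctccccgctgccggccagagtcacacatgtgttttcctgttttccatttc
SLC7A8, chr14:23183661-23183910, minus strand: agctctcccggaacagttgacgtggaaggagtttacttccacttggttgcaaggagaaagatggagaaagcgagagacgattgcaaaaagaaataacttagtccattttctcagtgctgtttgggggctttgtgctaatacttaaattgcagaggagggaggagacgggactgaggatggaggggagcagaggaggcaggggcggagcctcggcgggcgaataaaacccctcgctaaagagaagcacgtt
The promoter table matched 7 of the 10 members with 14 start windows of 250 bases before to 50 bases after the start, and it was searched on both strands. SLC3A1, SLC7A2 and SLC7A11 were not matched. The HNF4 site letters CAAAGTCCA, CAAAGGTCA and CAAAGTTCA were in 0 of the 14 windows and in 1.08% of 35116 windows of all genes. Only these exact letters were searched, so their absence says nothing about HNF4A binding in these windows or elsewhere. The nuclear receptor core AGGTCA, a search chosen after the SLC7A9 sequence was seen, lay in 1 of the 14 windows, that of SLC7A9. It was there 2 times on the reverse strand, at positions -183 to -178 and -48 to -43 counted from the start. At least 1 such match was in 13.8% of all windows and at least 2 in 1.38%. The count of 2 was likewise taken from the SLC7A9 sequence, so these shares are a description and not support for a link to HNF4A. The antioxidant response element (capitals in the SLC7A7 sequence) was in 2 of the 14 windows, of SLC7A7 and SLC7A6, against 3.18% of all windows, and the amino acid response element core TGATGNAA was in 2, of SLC3A2 and SLC7A1, against 3.62%; both of these lie after the start, at positions 37 to 44 and 7 to 14. The motifs do not overlap one another in the sequences shown.

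The values are normalized counts, which allow a gene to be compared between libraries. They are not divided by transcript length, so levels of different genes were not compared. The 4 libraries had totals between 17912507 and 18613685 normalized counts. The number of genes listed at 0 was 5479 and 5640 in the controls and lower, 4260 and 4362, after knockdown, and the absolute depth is unknown. HNF4A itself had 4129 and 3937 normalized counts in the controls, against 1140 and 932 in the siHNF4A libraries, a log2 difference of -1.97 with a standard error of 0.095 (adjusted p = 1.59e-05 in limma). Columnar epithelial markers, none at 0, summed over 10 genes to 108394 and 113947 normalized counts in the controls and to 104646 and 103484 after knockdown. Of these 6 were called in limma (60.0%, beside 14.1% of all genes tested): the keratins KRT8 and KRT18, EPCAM and CLDN4 were lower, and KRT19 and the mucin MUC13 were higher. Squamous markers summed over 7 genes to 35.5 and 17.4 in the controls and to 21.1 and 38.4 after knockdown, with KRT6A at 0 in all 4 libraries. Markers of fibroblasts, endothelium and leukocytes summed over 8 genes to 289 and 206 in the controls and to 332 and 348 after knockdown. The basal keratins differed in direction at low values: KRT14 had 0.637 and 2.29 in the controls and 12.2 and 25.7 after knockdown, and KRT5 had 32.6 and 12.1 against 6.14 and 10.5. The endothelial VWF had 8.55 and 6.68 in the controls and 47.5 and 36.4 after knockdown. Each of these 3 genes reached the mean of 10 needed for testing only through the group in which it is high, so no test is given for them. The part of these marker differences in the results of the transporters was not tested. In such bulk RNA, fewer cells with a transcript and less transcript per cell cannot be told apart.

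Of the 10 members 7 had siHNF4A libraries that did not overlap the control libraries, 6 of them lower and 1 higher. Such separation was also seen in 57.0% of the 15577 genes tested (30.1% lower, 26.9% higher), so with 2 libraries per group it is common. Among the 9 members other than SLC7A9, 6 passed an adjusted p under 0.05 in limma, which was the case for 14.1% of all genes tested. SLC3A1, SLC7A2, SLC7A5, SLC7A7 and SLC7A11 fell (8.11% of all genes tested were called lower) and SLC7A8 rose (6.02% were called higher). SLC3A2, SLC7A1 and SLC7A6 were not called. All 10 members had a mean of 10 or more over the 4 libraries, the filter for testing. The median log2 difference of the 9 members was -0.20, that of all 10 was -0.38 and that of all genes tested was -0.007. The count of 6 went to 2 without siHNF4A replicate 1, to 2 without siHNF4A replicate 2 and to 4 without either control library, while the count over all genes went from 2202 to 985, 906, 2413 (without control replicate 1) and 1916 (without control replicate 2). Testing every gene above 0 left 1 of the 9 called, SLC7A8, and without the trend of variance with expression 0 of the 9 and 0 of all genes were called at the adjusted threshold in limma, with 4 of the 9 (SLC3A1, SLC7A2, SLC7A7 and SLC7A8) and 3524 of all genes under an unadjusted p of 0.05.

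**Figure D1:**
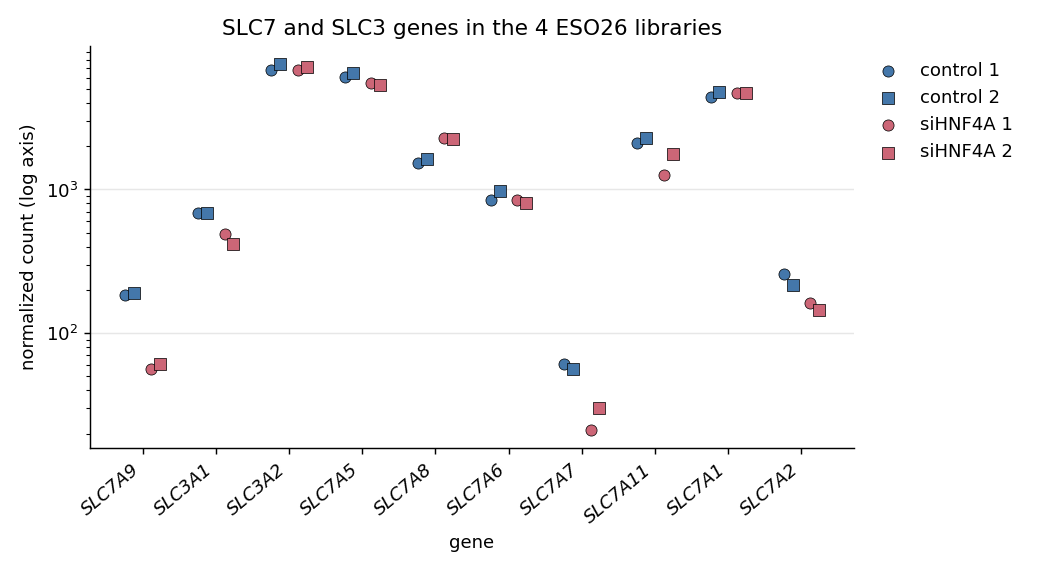
Normalized counts (log axis) of the 10 genes, with control libraries in blue and siHNF4A libraries in red, circles for replicate 1 and squares for replicate 2. SLC7A9 lies at 185 and 192 in the controls and at 56.1 and 61.2 after knockdown, while the groups of SLC3A2, SLC7A1 and SLC7A6 overlap; heights of different genes are not comparable.

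The cystine and dibasic amino acid exchanger is made of SLC7A9 and SLC3A1, and both were lower after knockdown. SLC7A9, the transporting light chain, had 185 and 192 normalized counts in the control libraries and 56.1 and 61.2 in the siHNF4A libraries. The groups are far apart and the libraries of each group lie close together. The means were 188 ± 5.08 and 58.7 ± 3.59 (SD, n = 2 each), so that 31.2% of the control level was left, a log2 difference of -1.67 that ranked 35 from the lowest among 15577 genes. Between -1.73 and -1.60 was found with any 1 library left out.

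SLC3A1, the heavy chain of this exchanger, had 685 and 685 normalized counts in the controls, against 489 and 418 in the siHNF4A libraries. Both siHNF4A libraries were below both controls, and 66.3% of the control mean was left. The log2 difference was -0.60 with a standard error of 0.11 (adjusted p = 0.00717 in limma). It was -0.48 and no longer called without siHNF4A replicate 2 (adjusted p = 0.0569 in limma), and it was not called when every gene above 0 was tested (adjusted p = 0.0525, with a range of 0.00258 to 0.128 over the alternatives). SLC3A1 overlaps PREPL, a gene for a prolyl endopeptidase-like protein, in the RefSeq annotation. PREPL had 1151 and 1141 normalized counts in the controls, against 1501 and 1623 in the siHNF4A libraries, a log2 difference of 0.45 in the other direction (adjusted p = 0.00598 in limma, and 0.058 without siHNF4A replicate 2). Added together, SLC3A1 and PREPL gave 1831 ± 7.33 in the controls and 2015 ± 36.1 after knockdown (SD, n = 2 each). Use of the strand in counting is not given in the sources used here, and the part of reads from the shared stretch in either value was not tested.

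Within a library, the ratio of SLC7A9 to SLC3A1 was 0.27 and 0.28 in the controls, against 0.115 and 0.146 in the siHNF4A libraries. This ratio does not depend on how libraries are scaled. Its mean after knockdown was 47.5% of the control mean, given as a description since the fall of SLC7A9 chose the family.

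The neighbours of SLC7A9 on chromosome 19 were also read, and none of those tested was called. CEP89, which encodes a centrosomal protein and lies next to it on one side, had 242 and 250 normalized counts in the controls and 193 and 217 after knockdown (adjusted p = 0.257 in limma). TDRD12, next to it on the other side, was below the filter, with 7.08 and 5.14 in the controls and 11.1 and 9.45 after knockdown. NUDT19, the next protein-coding gene beyond TDRD12, had 621 and 635 in the controls, against 500 and 543 in the siHNF4A libraries (adjusted p = 0.113 in limma). The pseudogene RN7SKP22 lies inside SLC7A9 and was listed at 0 in 3 libraries and at 1.07 in siHNF4A 2.

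**Figure D2:**
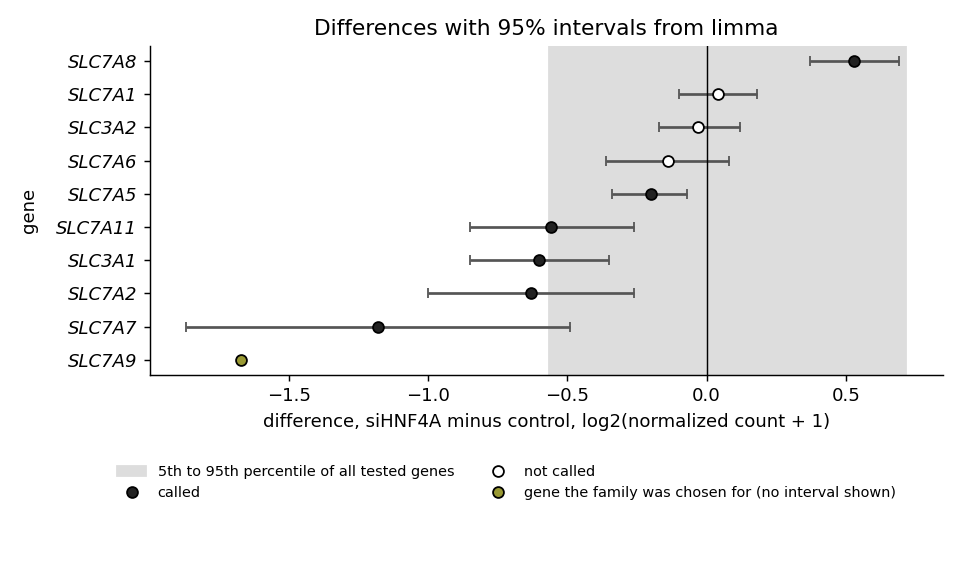
Difference between siHNF4A and control libraries on the log2(normalized count + 1) scale, with 95% intervals from limma for all members but SLC7A9, which chose the family; filled points were called and the grey band spans the 5th to 95th percentile of all tested genes (-0.57 to 0.72). The points run from -1.67 for SLC7A9 and -1.18 for SLC7A7 to 0.53 for SLC7A8.

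SLC3A2, the heavy chain shared by the other light chains, showed no difference beyond the spread of the libraries. It had 6751 and 7444 normalized counts in the controls and 6743 and 7175 after knockdown. The groups overlap, and the log2 difference of -0.03 has a 95% interval of -0.17 to 0.12 (adjusted p = 0.822 in limma). Its sign was not stable, being 0.012 with equal library totals and 0.029 after quantile normalization. Each of its light chains was then compared.

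SLC7A5 (LAT1), the exchanger that brings large neutral amino acids such as leucine into growing cells, had 6078 and 6489 normalized counts in the controls, against 5545 and 5360 in the siHNF4A libraries. The groups do not overlap, 86.8% of the control mean was left, and the call lies close to the threshold. The log2 difference was -0.20 with a standard error of 0.06 (adjusted p = 0.0482 in limma). The call was lost with equal library totals (adjusted p = 0.0764 in limma), with quantile normalization (0.0974) and with the replicate block (0.0581). It was also lost without the filter (0.145) and without the variance trend (0.275). Leaving out control replicate 2, siHNF4A replicate 1 or siHNF4A replicate 2 lost it too, at log2 differences of -0.16, -0.23 and -0.18. The pseudogene SLC7A5P1 resembles part of SLC7A5 and had between 4.89 and 13.2 normalized counts, and adding it gave 6292 ± 297 and 5462 ± 135 (SD, n = 2 each), again 86.8% of control.

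SLC7A8 (LAT2), which exchanges small and large neutral amino acids and is placed in the basolateral membrane of epithelia, went the other way. It had 1527 and 1622 normalized counts in the controls, against 2294 and 2249 in the siHNF4A libraries. Both siHNF4A libraries lie well above both controls, at 144% of the control mean. The log2 difference was 0.53 with a standard error of 0.072 (adjusted p = 0.00162 in limma). It stayed between 0.49 and 0.57 with any 1 library left out and was called in each of those 4 fits; without the variance trend it was not (adjusted p = 0.114 in limma). The ratio of SLC7A8 to SLC7A5 within a library was 0.251 and 0.25 in the controls and 0.414 and 0.42 after knockdown, close within each group and 166% of the control mean.

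SLC7A7 (y+LAT1), the basolateral exchanger through which epithelia release cationic amino acids and whose defects cause lysinuric protein intolerance, had 61.4 and 56.3 normalized counts in the controls and 21.2 and 30.3 after knockdown. The groups do not overlap, and 43.8% of the control mean was left. The log2 difference was -1.18 with a standard error of 0.31 (adjusted p = 0.0318 in limma). These are low values, and the call was lost without any 1 of the 4 libraries: the adjusted p was 0.0665 without control replicate 1, 0.0524 without control replicate 2, 0.167 without siHNF4A replicate 1 and 0.0587 without siHNF4A replicate 2. SLC7A6 (y+LAT2), a close relative of SLC7A7 with the same kind of exchange, had 848 and 977 in the controls and 851 and 807 after knockdown. Its groups overlap, and its log2 difference of -0.14 has a 95% interval of -0.36 to 0.08 (adjusted p = 0.409 in limma). SLC7A6 overlaps the gene SLC7A6OS, which had 410 and 445 in the controls and 467 and 516 after knockdown (adjusted p = 0.284 in limma). The ratio of SLC7A7 to SLC7A6 was 0.0724 and 0.0576 in the controls and 0.0249 and 0.0376 after knockdown.

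SLC7A11 (xCT) imports cystine in exchange for glutamate and supplies cysteine for glutathione. It had 2119 and 2286 normalized counts in the controls, against 1266 and 1766 in the siHNF4A libraries. Both siHNF4A libraries are lower, but they differ from each other by more than the controls do, with 1516 ± 353 against 2203 ± 118 (SD, n = 2 each). The log2 difference was -0.56 with a standard error of 0.13 (adjusted p = 0.0203 in limma). It was -0.32 without siHNF4A replicate 1 (adjusted p = 0.0899), -0.80 without siHNF4A replicate 2, and not called in the robust fit (adjusted p = 0.0525, with a range of 9.28e-04 to 0.224 over the alternatives). The antisense gene SLC7A11-AS1, which overlaps it, had 1.18 and 29.3 in the controls and 26.8 and 2.38 after knockdown, with no order between the groups.

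The cationic amino acid transporters work without a heavy chain. SLC7A1 (CAT1), the broadly expressed arginine and lysine carrier, had 4393 and 4779 normalized counts in the controls and 4690 and 4727 after knockdown. The siHNF4A libraries lie between the controls, and the log2 difference of 0.04 has a 95% interval of -0.10 to 0.18 (adjusted p = 0.729 in limma); it was -0.021 without control replicate 1. SLC7A2 (CAT2), a carrier of the same substrates found in liver, had 259 and 216 in the controls and 162 and 144 after knockdown. Both siHNF4A libraries are lower, with 64.3% of the control mean left. The log2 difference was -0.63 with a standard error of 0.16 (adjusted p = 0.0319 in limma). The call was lost without control replicate 1 (adjusted p = 0.115), siHNF4A replicate 1 (0.0807) or siHNF4A replicate 2 (0.157). The ratio of SLC7A2 to SLC7A1 within a library was 0.059 and 0.0451 in the controls and 0.0344 and 0.0305 after knockdown.

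**Figure D3:**
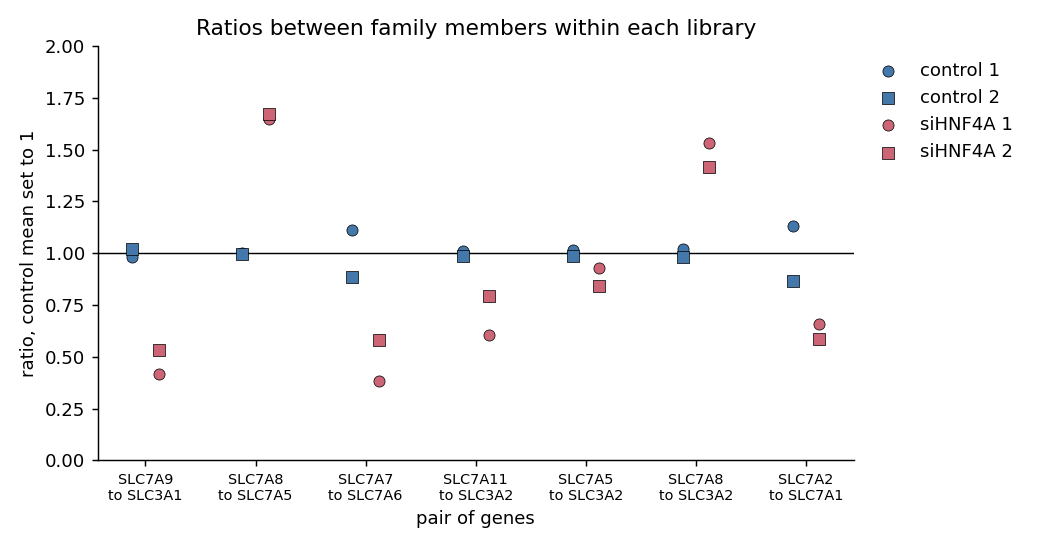
Ratio of the normalized counts of a pair of family members within each library, divided by the mean of the 2 control libraries (dimensionless), with control libraries in blue and siHNF4A libraries in red, circles for replicate 1 and squares for replicate 2. After knockdown the ratio of SLC7A9 to SLC3A1 was 47.5% of the control mean and that of SLC7A8 to SLC7A5 was 166%.

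The table held 6 further symbols of the family. SLC7A14, related in sequence to the cationic carriers, had 18.7 and 17 normalized counts in the controls and 8.81 and 4.33 after knockdown. It reached the filter only through the controls, so no test is given. SLC7A10 and SLC7A13, light chains known from brain and kidney, were listed at 0 in both controls and between 0.773 and 1.52 in the siHNF4A libraries, in which fewer genes are listed at 0 in general. They and SLC7A5P1 lay below the filter, and SLC7A6OS and SLC7A11-AS1 are the overlapping genes given above.

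The genes whose centred log2 values over the 4 libraries lay nearest to those of SLC7A9, among 10917 others with a mean of at least 100, were MICB, SH3GL1, EMC7, STRADB and CNTNAP2, at Euclidean distances between 0.139 and 0.269. MICB had 211 and 201 normalized counts in the controls and 63.7 and 62.5 after knockdown, and EMC7 had 1038 and 1071 against 372 and 314. This likeness over 4 libraries mostly reflects a fall of like size, to between 30.7% and 36.7% of control in the 5 genes.

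Amino acid carriers of other families were read from a list of 40 symbols, of which 36 were in the table and 30 were tested. Of these 7 were called, 2 higher and 5 lower, which is 23.3% beside 14.1% of all genes tested. The median log2 difference was -0.105 beside -0.007, and it was -0.163 without siHNF4A replicate 2. Over the alternatives it ran from -0.165 with the filter at 50 to -0.066 with equal library totals. SLC38A1, a sodium-coupled glutamine carrier, fell from 36430 and 36190 normalized counts to 29714 and 30519 (adjusted p = 0.00404 in limma). SLC1A1, the epithelial glutamate, aspartate and cysteine carrier, fell from 1369 and 1420 to 922 and 1092 (adjusted p = 0.0106). These falls are clear of the control spread, and both are small beside that of SLC7A9. SLC38A9, the lysosomal arginine sensor of the mTORC1 pathway, fell from 348 and 415 to 264 and 232 (adjusted p = 0.0181). SLC15A2, a peptide carrier, rose from 54 and 72.3 to 127 and 127 (adjusted p = 0.0153). SLC38A8 had 9.22 and 3.1 in the controls and 40 and 53.5 after knockdown. It reached the filter only through the siHNF4A libraries, so no test is given for it. Its place among the 7, among the 2 higher ones and in the 23.3% is not support for a change. The other 2 called carriers, named after their values were seen, were SLC6A6, a taurine carrier, and SLC6A19, the main brush-border carrier of neutral amino acids, which had 37.3 and 28.3 in the controls and 12.4 and 11 after knockdown (adjusted p = 0.0391). Apart from SLC38A8, each of these calls was lost when some 1 library was left out. Without siHNF4A replicate 1 those of SLC38A1 and SLC1A1 were lost, at log2 differences of -0.25 and -0.35. Without siHNF4A replicate 2 that of SLC6A6 was lost, at -0.28. The SLC15A2 call was lost without either siHNF4A replicate (1.01 and 1.02), and that of SLC38A9 without control replicate 2 (-0.49) or siHNF4A replicate 2 (-0.53). The SLC6A19 call was lost without any 1 of the 4, at between -1.60 and -1.21. SLC16A10, an aromatic amino acid carrier of the basolateral membrane, had 154 and 160 in the controls and 117 and 114 after knockdown and was not called (adjusted p = 0.124); it and the carriers and genes named as not called in the next paragraphs were chosen after their values were seen.

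Brush-border peptidases and partners of amino acid carriers had 11 of 12 symbols in the table, 9 of them tested. Of the 9, 1 was called (11.1% beside 14.1% of all genes tested): ANPEP, the aminopeptidase N that releases amino acids from peptides at the cell surface. It had 81 and 46.9 normalized counts in the controls and 15.6 and 26 after knockdown, 32.5% of the control mean, with a log2 difference of -1.56 (adjusted p = 0.023 in limma). The controls differ widely, and the call was lost without control replicate 1 (adjusted p = 0.082) or siHNF4A replicate 1 (0.132). DPP4, another surface peptidase, had 5082 and 5206 in the controls and 4534 and 4605 after knockdown (adjusted p = 0.077). The median log2 difference of the list was -0.114, but it was 0.026 without control replicate 2 and 0.089 without siHNF4A replicate 2.

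**Figure D4:**
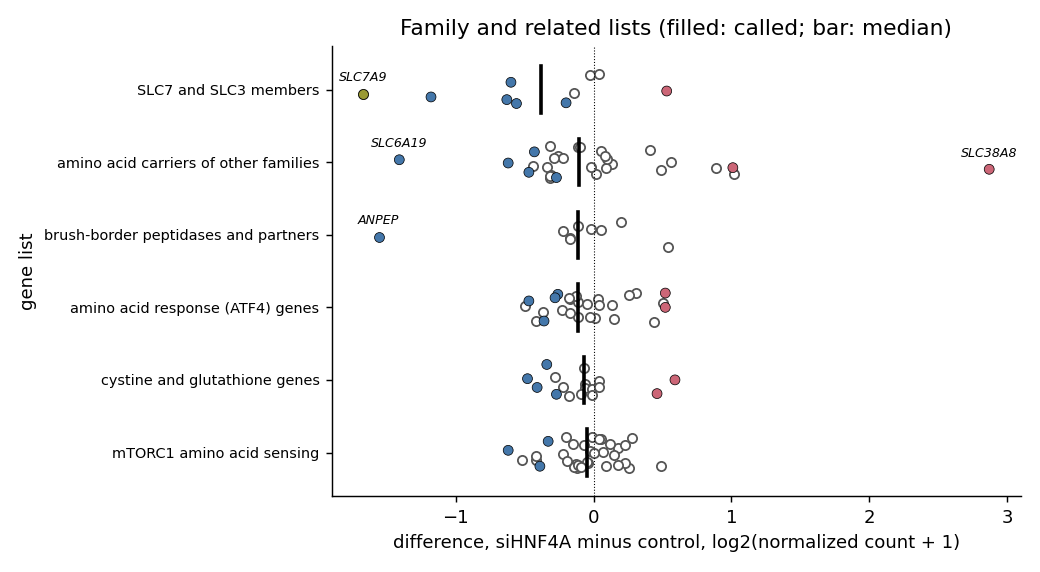
Each point is a tested gene, placed by its difference between siHNF4A and control libraries on the log2(normalized count + 1) scale (x axis) and by list (y axis, with random spread); blue and red points were called lower and higher, open points were not called, the olive point is SLC7A9 and bars are medians. The medians of the related lists lie between -0.114 and -0.046 with all 4 libraries. Among the genes of those lists, SLC6A19, ANPEP and SLC38A8 stand farthest out.

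Several family members, among them SLC7A11, SLC7A5, SLC7A1 and SLC3A2, are known targets of ATF4, the transcription factor of the amino acid response. Of 30 symbols of this response 29 were in the table and 27 were tested, and 6 were called, 2 higher and 4 lower (22.2% beside 14.1% of all genes tested, median log2 difference -0.107). ALDH18A1, an enzyme of proline synthesis, fell from 3317 and 3419 normalized counts to 2421 and 2455 (adjusted p = 0.00163 in limma), XPOT, a tRNA exporter, fell from 2605 and 2818 to 2229 and 2006 (0.0148), and MTHFD2, a mitochondrial folate enzyme, fell from 3818 and 3886 to 3149 and 3293 (0.0221). PHGDH, the first enzyme of serine synthesis, rose from 307 and 328 to 477 and 435 (0.0181), and PCK2 rose from 256 and 246 to 356 and 363 (0.023). The median was 0.003 without control replicate 2, 0.006 without siHNF4A replicate 1, -0.205 without control replicate 1 and -0.190 without siHNF4A replicate 2, so its sign rested on single libraries. The sixth call was CEBPG, a partner of ATF4, with 1232 and 1274 in the controls and 1005 and 1056 after knockdown (0.0454). ATF4 itself had 2679 and 3033 in the controls and 2777 and 2950 after knockdown (0.969), and ASNS, asparagine synthetase, had 661 and 766 against 622 and 680 (0.48). ATF4, ASNS and DDIT3, which encodes a factor of the same response, all had overlapping groups. Among the 6, ALDH18A1 was called with any 1 library left out; the call was lost without siHNF4A replicate 1 for PHGDH (adjusted p = 0.13), MTHFD2 (0.147), PCK2 (0.104) and CEBPG (0.208), without siHNF4A replicate 2 for XPOT (0.114), PHGDH (0.0588), MTHFD2 (0.0735), PCK2 (0.121) and CEBPG (0.114), without control replicate 2 for MTHFD2 (0.0577), PCK2 (0.054) and CEBPG (0.139), and without control replicate 1 for CEBPG (0.0602). The CEBPG call was also lost with equal library totals (adjusted p = 0.0703) and with quantile normalization (0.0757).

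Cystine brought in by SLC7A11 feeds glutathione synthesis, and 17 genes of cystine, glutathione and the NRF2 response were all tested. Of these 6 were called, 4 lower and 2 higher (35.3% beside 14.1%, median log2 difference -0.070). NQO1, a quinone reductase, fell from 9701 and 10466 normalized counts to 7428 and 7708 (adjusted p = 0.00187 in limma), GSR, glutathione reductase, from 3388 and 3805 to 2439 and 2734 (0.00499), and TXN, thioredoxin, from 7487 and 8565 to 6282 and 6414 (0.0114). ME1, a source of NADPH, rose from 1805 and 2014 to 2465 and 2794 (0.00708), and CBS, an enzyme of cysteine synthesis, rose from 165 and 197 to 279 and 265 (0.0307). GSS, glutathione synthetase, was the sixth call, lower with 2463 and 2510 against 2173 and 1957 (0.0389). GCLC, the catalytic subunit of the enzyme that starts glutathione synthesis, had 7850 and 9014 in the controls and 7276 and 8939 after knockdown, overlapping groups with an adjusted p of 0.724 in limma. NQO1 and GSR were called with any 1 library left out; the call was lost without siHNF4A replicate 2 for ME1 (0.0658), TXN (0.0594), CBS (0.11) and GSS (0.245), without siHNF4A replicate 1 for TXN (0.0803), CBS (0.156) and GSS (0.0553), without control replicate 1 for CBS (0.0899) and without control replicate 2 for GSS (0.0866). For GSS it was also lost with equal library totals (adjusted p = 0.065) and with quantile normalization (0.0707). The median of the list was -0.161 without control replicate 1, -0.141 without siHNF4A replicate 2 and 0.017 without control replicate 2. With equal library totals it was -0.031, and with quantile normalization -0.043.

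The mTORC1 kinase complex reads the amino acids that such carriers bring in. Of 39 symbols of this pathway 35 were in the table, 34 were tested and 3 were called, all lower (8.82%, beside 14.1% of all genes tested, median log2 difference -0.046). Beside SLC38A9, given above, these were SEH1L, a subunit of the GATOR2 complex and of the nuclear pore, which fell from 2068 and 2171 normalized counts to 1606 and 1629 (adjusted p = 0.00662 in limma), and RHEB, the GTPase that activates mTORC1, which fell from 3487 and 3529 to 2731 and 2855 (0.00826, and 0.0717 without siHNF4A replicate 1). MTOR had 3318 and 3526 in the controls and 3394 and 2894 after knockdown, overlapping groups with an adjusted p of 0.354. Leaving out control replicate 1 moved the median of the list to -0.116, and leaving out control replicate 2 moved it to -0.011. With equal library totals it was -0.007, and with quantile normalization -0.003.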

How the data were processed

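The RNA-seq table holds normalized counts of 4 ESO26 libraries, a signal value per gene symbol that the authors deposited after a normalization not given in the sources used here. The submitters' processing notes name hg19, Bowtie, Bowtie2, Trim Galore, Picard and MACS2 without their roles. The values are fractional, so no count model was fitted and depth intervals are not given. Genes with a mean of at least 10 were tested with limma 3.58.1 (R 4.3.3; lmFit and eBayes with the variance trend) on values taken as log2(normalized count + 1), a scale that understates changes of low genes, with Benjamini-Hochberg adjustment over all 15577 genes and a threshold of 0.05. The script was tested on simulated data. The smallest p of an exact permutation test (two-sided) of 2 against 2 libraries is 0.333, so the calls depend on the variance that limma shares between genes.

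The members and lists were chosen with earlier results of these data known. Groups came from the titles. Named genes were HNF4A, the members, other family symbols, the called genes of smallest p in each list (up to 5), and the 5 genes nearest to SLC7A9. CEBPG and GSS, the sixth calls of their lists, were named after their values were seen. Overlapping genes, neighbours and marker genes were also named, and others are marked. Gene order, overlaps and the promoter windows come from RefSeq (GRCh38.p14), matched to the values by gene symbol. The ChIP-seq peak lists and the 4C libraries were not used here. Alternatives were other pseudocounts, filters, scalings, variance models, a replicate block and leaving out each library.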

Additional observations from a re-analysis of the deposited data

How the results depend on the processing

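Of 126 values of the 9 members other than SLC7A9 under the alternatives, 94 kept their direction and side of the threshold, 27 were no longer past it and 5 changed sign. All 27 belong to called members, since the uncalled ones had no call to lose. They run from 1 of 14 values for SLC7A8 to 8 of 15 for SLC7A5. The 5 belong to uncalled genes: SLC3A2, from -0.027 to 0.012 with equal library totals, 0.029 with quantile normalization, 0.043 without control replicate 2 and 0.017 without siHNF4A replicate 1 (range with 1 library left out -0.098 to 0.043), and SLC7A1, from 0.039 to -0.021 without control replicate 1 (range -0.021 to 0.10). SLC7A9 stayed between -1.73 and -1.60.

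Testing all genes above 0 gave 726 calls in place of 2202, and 1 in place of 6 members, 1 of 7 carriers of other families, 0 of 1 brush-border gene, 1 of 6 amino acid response genes and 1 of 6 glutathione genes. This setting tests more genes. Without the variance trend each of these counts and that of the mTORC1 genes was 0, while 3524 genes had an unadjusted p under 0.05. The filter at 50 left 0 brush-border genes called, since ANPEP is not tested there. The cause of the other losses was not tested. With 1 library left out, the counts lay between 906 and 2413 for all genes, 2 and 4 for the members, 2 and 7 for the carriers, 0 and 1 for the brush-border genes, 1 and 8 for the amino acid response, 2 and 8 for glutathione and 2 and 4 for mTORC1. The group with 1 library left is then taken to vary like the other.

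With the replicate number as a block, 2428 genes and 5 members were called, SLC7A5 being lost (adjusted p = 0.0581 in limma), and 5 mTORC1 genes in place of 3. Deviations of same-numbered libraries from their group means had a Pearson correlation of -0.0192 across 15577 genes and 0.0563 across the 10918 genes averaging 100 or more, too small to show that the numbers mark pairs. Motif shares over the 250 bases before the start alone were 0.911% for the HNF4 site, 3.14% for the amino acid response core, 2.59% for the antioxidant element and 12.1% for the core AGGTCA; the amino acid response core was then in 0 in place of 2 of the 14 member windows, and the other counts of member windows did not change. The absolute depth being unknown, low values such as those of SLC7A7 have no counting interval.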
